A study of Mus musculus with 30 samples.

Results

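The zones described here are the replication initiation zones of mouse embryonic stem cells in which at least 1 arm, the stretch from the breakpoint to an edge, was exactly 100 kb long. They numbered 272 of the 2844 zones in the deposited OK-seq list, or 9.56% (Wilson 95% interval, 8.54 to 10.7), and are called limit zones below. They were chosen by the measured arm length itself: no arm in the list exceeds 100 kb, so an arm at 100 kb stands at the end of the scale and may have been longer. The other 2572 zones were the comparison, and the 894 of these with a longest arm of 80 to 99 kb, called near-limit zones, served as the zones closest in size.

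The library was made from wild-type cells of the mouse embryonic stem cell line E14TG2a, labelled with 10 µM EdU for 2 min before OK-seq. The series asked how parental and new histones are passed to the sister DNA strands, and its other 29 samples are SCAR-seq libraries of wild-type cells and of clones 1 and 2 of the MCM2-2A mutant, which were not analysed here. With 1 library there was no replicate and no test between conditions, and the library's depth is unknown. Intervals at 95% treat zones as separate items and cover counting error only.

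Replication of a chromosome starts within broad initiation zones, and forks leave each zone in both directions. OK-seq sequences Okazaki fragments, which form on the lagging strand, so the strand of the fragments shows the direction in which forks travel. Moving across a zone, the strand balance shifts from leftward to rightward forks, and the list gives for each zone a bin where that shift is placed, the breakpoint, with an edge on each side. In mammalian cells such zones often lie beside transcribed genes.

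The 5 limit zones whose breakpoint lay nearest to an annotated gene start show what these places look like at the level of sequence. All 5 starts were within 1 kb of the middle of the breakpoint bin. The RefSeq promoter windows of 3 of them, from 250 bases before the start to 50 bases after it (GRCm38.p6, 300 bases each), are printed because they span the range from CpG-rich to CpG-poor. Capitals mark each CpG. Notch3, a receptor of the Notch pathway, lies at chr17:32166841-32167140 on the minus strand. Acaa1a, a peroxisomal thiolase of fatty acid oxidation, lies at chr9:119341044-119341343 on the plus strand. D630023F18Rik, an uncharacterised gene, lies at chr1:65123165-65123464 on the minus strand.
Notch3: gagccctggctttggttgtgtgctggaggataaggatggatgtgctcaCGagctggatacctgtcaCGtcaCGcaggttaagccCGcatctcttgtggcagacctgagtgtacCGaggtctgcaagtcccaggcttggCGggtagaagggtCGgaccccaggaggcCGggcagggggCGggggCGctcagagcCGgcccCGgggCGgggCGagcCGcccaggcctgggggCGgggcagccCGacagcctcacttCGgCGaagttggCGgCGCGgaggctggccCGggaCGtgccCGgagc
Acaa1a: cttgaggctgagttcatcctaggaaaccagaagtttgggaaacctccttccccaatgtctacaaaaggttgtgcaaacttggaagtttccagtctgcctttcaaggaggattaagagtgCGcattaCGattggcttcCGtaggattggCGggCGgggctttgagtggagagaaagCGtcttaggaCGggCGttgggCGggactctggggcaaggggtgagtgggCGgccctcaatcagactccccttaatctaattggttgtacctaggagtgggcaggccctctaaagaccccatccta
D630023F18Rik: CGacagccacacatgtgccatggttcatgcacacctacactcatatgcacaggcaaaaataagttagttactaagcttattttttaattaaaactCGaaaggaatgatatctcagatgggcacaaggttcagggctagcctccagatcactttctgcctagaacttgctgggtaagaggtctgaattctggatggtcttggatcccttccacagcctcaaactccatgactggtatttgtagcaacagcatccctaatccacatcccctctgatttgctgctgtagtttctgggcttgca

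The Notch3 window held 25 CpG at 70% GC, with an observed to expected CpG ratio of 0.706. The Acaa1a window held 10 CpG at 53.3% GC and a ratio of 0.481, and the D630023F18Rik window held 2 CpG at 45% GC and a ratio of 0.133. The other two of the 5 were Gm11100, with 8 CpG, and Sat2, which encodes an acetyltransferase of the spermidine/spermine type, with 10 CpG. A gene start beside the breakpoint of a limit zone was therefore not always of the CpG-rich class. Over all promoters with a sequence within 100 kb of a limit-zone breakpoint, 539 of 813 had a CpG ratio of 0.6 or more (66.3%, 63.0 to 69.5), against 3517 of 5496 within 100 kb of another breakpoint only (64.0%, 62.7 to 65.3). These intervals overlap. Among the 10148 promoters farther from any breakpoint the share was 40.8%, and over all 16457 promoters it was 49.8%.

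The limit took the left arm alone in 132 zones, the right arm alone in 133 and both arms in 7, so 279 arms stood at 100 kb. Counts of zones by longest arm climbed before the limit: 51 zones had a longest arm of 95 kb, 53 of 96 kb, 76 of 97 kb, 99 of 98 kb and 117 of 99 kb, just outside the rule, against 272 at 100 kb. Zone width, the distance between edges, had a median of 153 kb in limit zones (range 107 to 200 kb), against 106 kb in the other zones (36 to 198 kb) and 139 kb in near-limit zones. That contrast follows from the rule. The shorter arm had a median of 53 kb in limit zones, against 47 kb in near-limit zones: among the 265 zones with 1 limit arm it was under 20 kb in 7, 20 to 40 kb in 67, 40 to 60 kb in 91, 60 to 80 kb in 47 and 80 kb or more in 53. That the breakpoint lay nearer to the edge not at the limit in these 265 zones follows from the rule.

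**Figure D1:**
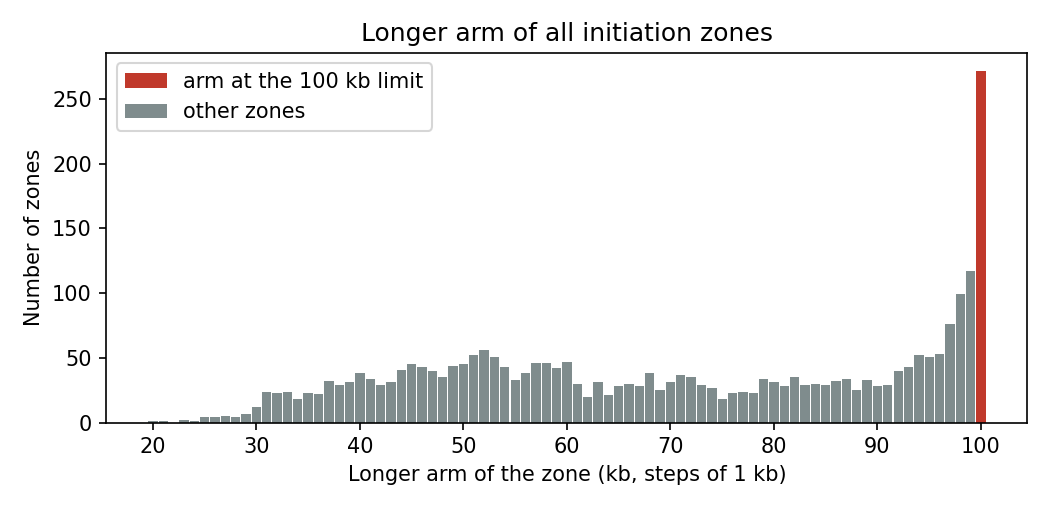
Number of zones by the length of their longest arm in kb, limit zones in red and the other zones in grey. The bar at 100 kb holds 272 zones, against 117 at 99 kb and 51 at 95 kb.

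Limit zones covered 42.4 Mb of the 311.7 Mb that all zones cover, or 13.6%. They occurred on each of chromosomes 1 to 19, with shares of the zones of a chromosome between 5.43% on chromosome 18 (5 of 92) and 16.2% on chromosome 14 (18 of 111, 10.5 to 24.2). Chromosome 7 followed with 23 of 167 (13.8%) and chromosome 19 with 11 of 91 (12.1%). Chromosome 14 was the 1 chromosome of 19 whose interval did not include the share over all zones, and about 1 of 19 intervals at 95% would miss it through counting error.

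**Figure D2:**
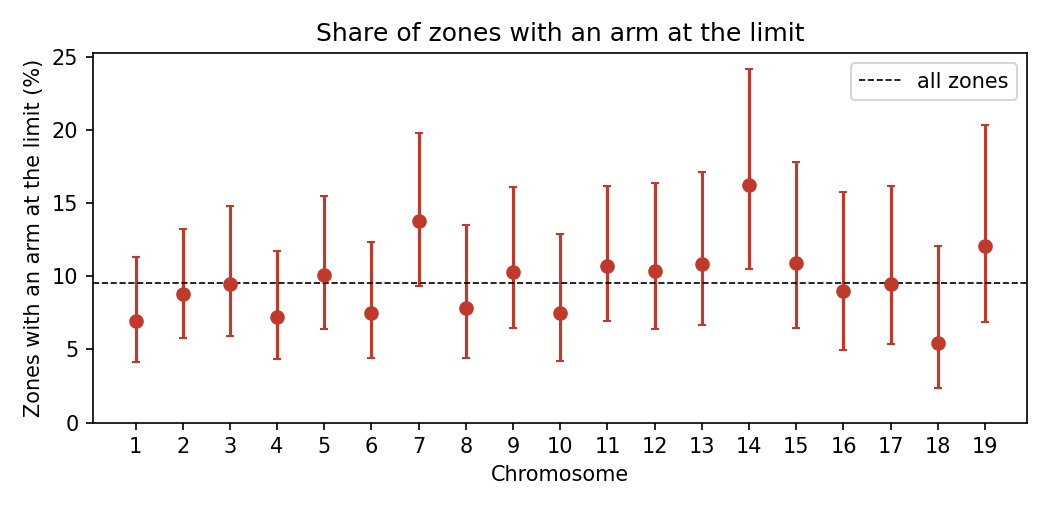
Share of the zones of each chromosome that had an arm at the limit, in percent, with Wilson 95% intervals; the dashed line is the share over all zones, 9.56%. Shares run from 5.43% to 16.2%, and the interval of chromosome 14 alone lies above the line.

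Breakpoints fell in the body of a protein-coding gene at a similar share in limit zones and other zones, and more gene ends lay around those of limit zones. A breakpoint in a gene body was found in 79 of 272 limit zones (29.0%, 24.0 to 34.7), against 751 of 2572 other zones (29.2%, 27.5 to 31.0), a difference of -0.155 percentage points (-5.53 to 5.76) with 29.2% over all zones. Near-limit zones had 32.2%, and from them limit zones differed by -3.17 points (-9.13 to 3.22). When all 668 zones with an arm of at least 95 kb took the place of limit zones, the difference from the remaining zones was 4.71 points (0.752 to 8.80). The genes that held the breakpoint had a median span of 28.4 kb (20.5 to 39.9, n = 79) in limit zones, against 34.7 kb (31.4 to 40.2, n = 751) in the other zones. The upper quartile of that span was 55.8 kb in limit zones, against 149.5 kb in the other zones. In near-limit zones the median was 34.7 kb (30.4 to 44.2, n = 288) and the upper quartile 104.8 kb. The upper quartile was thus lowest in limit zones, while the medians had overlapping intervals. No interval was computed for the quartiles.

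A mean of 4.16 protein-coding genes had an end within 100 kb of the breakpoint of a limit zone (SD 3.25, median 4), against 3.34 for the other zones (SD 3.00, median 3). The difference was 0.817 genes (0.414 to 1.22), and against near-limit zones, with a mean of 3.61, it was 0.553 (0.123 to 0.983). Within 200 kb the difference from the other zones was 1.12 genes (0.482 to 1.76). Within 500 kb the mean was 13.01 genes for limit zones, against 12.17 for the other zones, with a difference of 0.844 (-0.463 to 2.15), and against near-limit zones the difference was 1.27 (-0.135 to 2.67). No gene end lay within 100 kb of the breakpoint in 20 limit zones (7.35%, 4.81 to 11.1), against 339 other zones (13.2%, 11.9 to 14.5), a difference of -5.83 points (-8.71 to -1.89) beside 12.6% over all zones. Near-limit zones had 8.50% without a gene end, and from them limit zones differed by -1.15 points (-4.39 to 2.93). At the other end, 34 limit zones (12.5%) had 8 or more genes, against 223 other zones (8.67%), a difference of 3.83 points (0.226 to 8.41) beside 9.04% over all zones. Near-limit zones had 9.51%, and from them limit zones differed by 2.99 points (-1.02 to 7.78). The nearest gene end was a median of 10.5 kb from the breakpoint (8.36 to 12.4) in limit zones, against 13.4 kb (12.3 to 14.3) in the other zones. Zones with the left arm at the limit lacked a gene end within 100 kb in 14 of 132 cases (10.6%, 6.42 to 17.0). For the right arm it was 6 of 133 (4.51%, 2.08 to 9.49), and these intervals overlap.

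Gene-rich limit zones lay among clusters of quite different kinds. Genes are counted here by an end within 100 kb of the breakpoint, a window that can run past the edge of the zone. The richest, at chr4:88715001-88854000, had 25 protein-coding genes with an end within 100 kb; those nearest to its breakpoint, Gm13271, Gm13286 and Gm13283, each span less than 1 kb. The zone at chr11:69526001-69722000 had 16 genes, among them Sat2, Shbg, which encodes the globulin that binds sex hormones in blood, and Fxr2, an RNA-binding relative of the fragile X protein. The zone at chr17:33780001-33940000 also had 16, with the breakpoint inside Kifc1, a kinesin motor of the spindle, and Daxx, a chaperone of histone H3.3, 28.9 kb away. The zone at chr9:44294001-44493000 had 14, including Hyou1, a chaperone of the endoplasmic reticulum whose end lies 0.131 kb from the breakpoint, and Trappc4, a subunit of a vesicle tethering complex.

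Gene-poor limit zones were fewer, and some lay far from any gene. Among the first 5 in genome order, the nearest gene end was 631.1 kb away at Rgs18, a regulator of G protein signalling, 263.8 kb at Lrp1b, an endocytic receptor, 200.3 kb at Bche, a cholinesterase, 133.5 kb at Hnf4g, a nuclear receptor, and 125.9 kb at Pcdh10, a protocadherin. Of the 20 limit zones without a gene end within 100 kb, some held a breakpoint deep inside a long gene. That was the case in Unc5d, a netrin receptor of 573.0 kb, where the nearest gene end was 108.8 kb away. The largest such distance over all limit zones was 1357 kb.

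The limit arm itself was compared with the longer arm of the other zones. Protein-coding gene bodies covered a mean of 49.2% of a limit arm (SD 31.1, n = 279), against 43.8% of the longer arm of the other zones (SD 33.8, n = 2572), a difference of 5.43 points (1.55 to 9.31). Against near-limit zones (46.4%) the difference was 2.81 points (-1.42 to 7.04). Longer arms of the other zones had a median of 66 kb, so the stretches compared differed in length. At equal distances the order was mixed. Over the first 50 kb the mean share in a gene body was 49.1% in limit zones, against 42.8% in the other zones. From 50 to 100 kb it was 50.2%, against 55.1%. Within the same zone the limit arm and the opposite arm had nearly equal cover, with a mean difference, limit minus opposite, of -0.273 points (-5.10 to 4.56). When the outer part of the arm alone was measured, from its middle to its edge, the difference from the other zones turned to -2.02 points (-6.57 to 2.54). These outer parts too lie at unlike distances from the breakpoint.

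Genes of 100 kb or more were less frequent over limit arms. Such a gene of 100 kb or more overlapped 55 of 279 limit arms (19.7%, 15.5 to 24.8), against 701 of 2572 longer arms of the other zones (27.3%, 25.6 to 29.0), a difference of -7.54 points (-12.1 to -2.20). Against near-limit zones, where 243 of 894 arms had one (27.2%), the difference was -7.47 points (-12.7 to -1.67). With genes of 50 kb or more the difference from the other zones was -4.02 points (-9.93 to 2.13). The longest gene over an arm, with arms without a gene entered as 0, had a median span of 41.9 kb (38.1 to 46.9) for limit arms, against 40.6 kb (37.5 to 43.5) for the other zones, and an upper quartile of 76.7 kb for limit arms, against 108.6 kb. No gene at all lay over 14.3% of limit arms, against 22.7% of the longer arms of the other zones and 15.8% of those of near-limit zones. Longer arms of the other zones had a median of 66 kb, so there was less length to hold a gene.

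The outer edge of a limit arm lay in a gene body less often than that of the longer arm in the other zones. The rule fixes this edge at 100 kb, where the arm may not have ended, and the edges compared lay nearer to the breakpoint. The outer edge lay in a gene body for 128 of 279 limit arms (45.9%, 40.1 to 51.7), against 1414 of 2572 (55.0%, 53.0 to 56.9) in the other zones, a difference of -9.10 points (-15.2 to -2.93). Against near-limit zones (50.6%) the difference was -4.68 points (-11.3 to 2.03). The edge opposite the limit arm was not fixed by the rule, except in the 7 zones with both arms at the limit. The share at that edge was 61.6%, against 60.7% at the edge of the shorter arm in the other zones and 65.3% in near-limit zones. Where the longest gene over the arm had a known strand, it was read away from the breakpoint in 127 of 198 limit arms (64.1%, 57.3 to 70.5), against 974 of 1593 (61.1%, 58.7 to 63.5).

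A few limit arms lay wholly or almost wholly within 1 gene. Gene bodies covered the whole arm in 8 of 279 limit arms (2.87%, 1.46 to 5.56). The count was 153 of 2572 longer arms of the other zones (5.95%, 5.10 to 6.93), and the share was 4.36% (3.21 to 5.91) in near-limit zones. Arms of the other zones were shorter, with a median of 66 kb, so the lengths to be covered differed. The interval of limit arms overlaps both of the others. In 6 of the 267 limit zones that are not on chromosome 18, the whole arm was inside a single gene body: Astn2, which acts in neuronal migration and spans 1024 kb, Unc5d, Pakap, which encodes an anchoring protein of protein kinase A, Ncam2, a neural adhesion molecule, and Hs3st5, a heparan sulfate sulfotransferase whose gene holds a pair of limit zones. In all 6 the breakpoint was in the same gene, which follows from the definition because an arm starts at the breakpoint. A second kind of arm ran along a gene from a breakpoint just outside it. Prickle1, a planar cell polarity gene, covered 97.2% of a limit arm, and its nearer end was 0.611 kb from the breakpoint. Arntl, a transcription factor of the circadian clock, covered 95.03% with its start 4.97 kb from the breakpoint. Dnah8, an axonemal dynein, covered 88.6% with its start 11.4 kb away, and Reep3, which shapes the endoplasmic reticulum, covered 87.8% with its nearer end 6.69 kb away.

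Gene ends were denser along limit arms than at the same distances in the other zones. Over the first 50 kb of the limit arm there were 0.437 gene ends per 10 kb, with both ends of a gene counted (exact Poisson interval, 0.403 to 0.473), against 0.337 (0.327 to 0.347) over the same stretch of the longer arm of the other zones. From 50 to 100 kb, a stretch that lies partly outside the other zones because their arms are shorter, the density was 0.382 (0.350 to 0.416) in limit zones, against 0.252 (0.244 to 0.261) in the other zones. Within the 50 kb inside the edge it was 0.382 for limit arms, against 0.333 (0.316 to 0.350) for near-limit zones and 0.324 (0.313 to 0.336) for the 1925 other zones with an arm of 50 kb or more. From 100 to 200 kb, past the limit, it was 0.239 (0.222 to 0.258) in limit zones, against 0.215 (0.209 to 0.221). The drop across the edge was close to that of other long arms: the 50 kb inside the edge held 1.39 times the gene ends of the 50 kb outside it in limit zones, against 1.42 times in near-limit zones and 1.50 times in those 1925 other zones. On the opposite side of the breakpoint the first 50 kb held 0.376 gene ends per 10 kb in limit zones, against 0.316 in the other zones.

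Genes beside the breakpoint pointed away from it in limit zones and other zones alike. Of the gene starts with a known strand in the first 50 kb of the limit arm, 164 of 260 read outward along the arm (63.1%, 57.1 to 68.7), against 1198 of 1902 (63.0%, 60.8 to 65.1) in the other zones. Over the first 50 kb of the opposite side, 75 of 234 starts read in the direction of the limit arm (32.1%, 26.4 to 38.3), against 567 of 1676 (33.8%, 31.6 to 36.1), which means that most there too read away from the breakpoint. The share of limit arms with a gene body at a given distance was lowest beside the breakpoint, with 30.5% at 5 kb on the opposite side. At 35 kb along the limit arm it was 59.5% (53.6 to 65.1), against 52.2% (50.2 to 54.1) at that distance in the other zones. At 75 kb the order was the other way, with 45.2% (39.4 to 51.0) in limit zones, against 55.5% (53.6 to 57.4) in the other zones. That point lies past the end of most longer arms of the other zones, which had a median of 66 kb. On the opposite side, 55 kb from the breakpoint, the share was 68.1% (62.4 to 73.3), against 63.5% (61.7 to 65.4). These are single points of the profile, and the intervals overlap at 35 kb and on the opposite side.

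**Figure D3:**
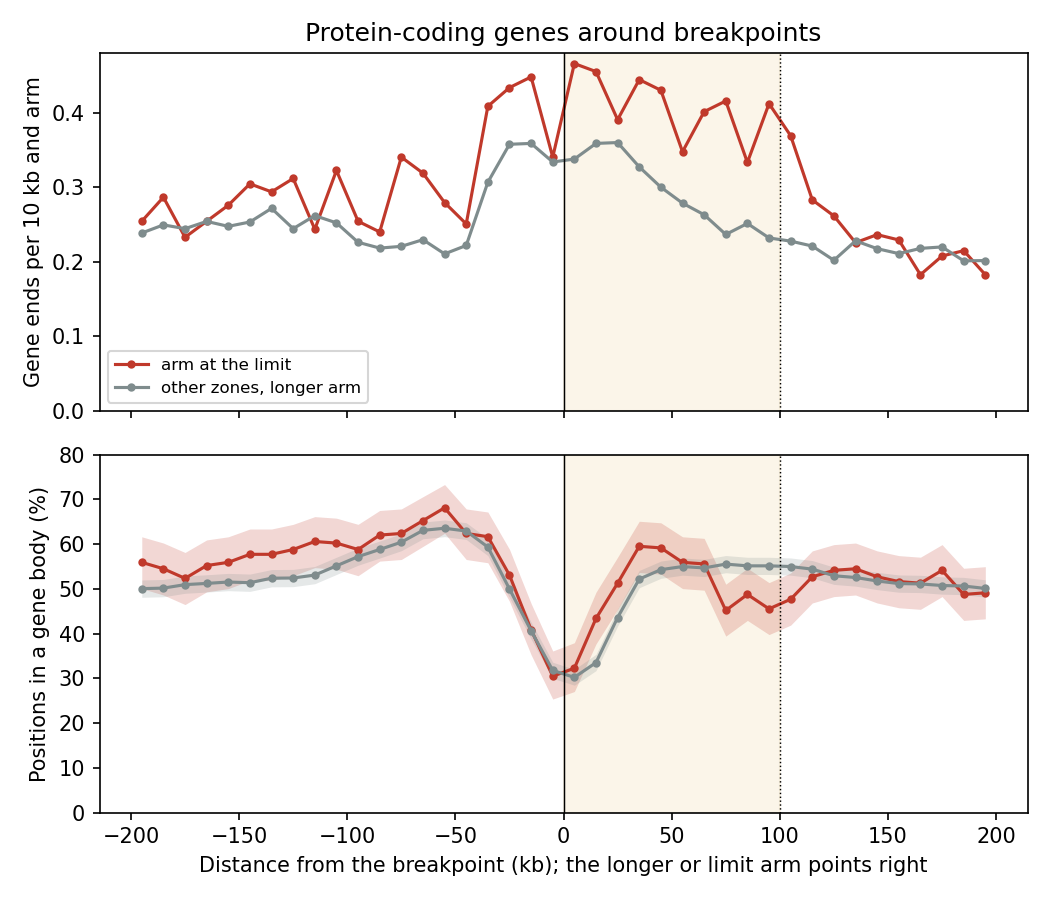
Protein-coding gene ends per 10 kb and the share of arms with a gene body at each point in percent, by distance in kb from the breakpoint, with the limit arm, or the longer arm of the other zones, drawn to the right and shaded over 100 kb; bands in the lower plot are Wilson 95% intervals. Limit zones lie above the other zones in gene ends along the arm. Their share in a gene body is above at 35 kb, with overlapping intervals. It is below at 75 kb, past the end of most longer arms of the other zones.

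The 7 zones with both arms at the limit, all 200 kb wide, were unlike each other in gene content. The zone at chr2:130559001-130760000 had 10 genes with an end within 100 kb, and its breakpoint lay in Ddrgk1, an adaptor of the UFM1 conjugation pathway, beside Itpa, which clears deaminated purine nucleotides, Lzts3 and the membrane transporter Slc4a11. The zone at chr2:164760001-164961000 had 14 genes around Pltp, the phospholipid transfer protein, Pcif1, which methylates the cap of mRNA, Ctsa, a lysosomal protease, and Neurl2. The zone at chr8:3455001-3656000 had 12, with Pnpla6, a lysophospholipase, Rps23rg1, Camsap3, which binds microtubule minus ends, and Mcoln1, a lysosomal cation channel. In contrast, the zone at chr5:50016001-50217000 had only Adgra3, an adhesion receptor, 57.5 kb from the breakpoint. The zone at chr5:118363001-118564000 had only Med13l, a Mediator subunit, whose start lies 96.8 kb away and thus just inside the right edge. The zone at chr7:82703001-82904000 had Efl1, a GTPase of ribosome maturation, on its left arm and Mex3b, an RNA-binding protein gene, on its right. At chr6:119365001-119566000 the breakpoint lay within Wnt5b, a Wnt ligand, with Fbxl14, Adipor2, a receptor for adiponectin, and Gm52875 in the zone.

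**Figure D4:**
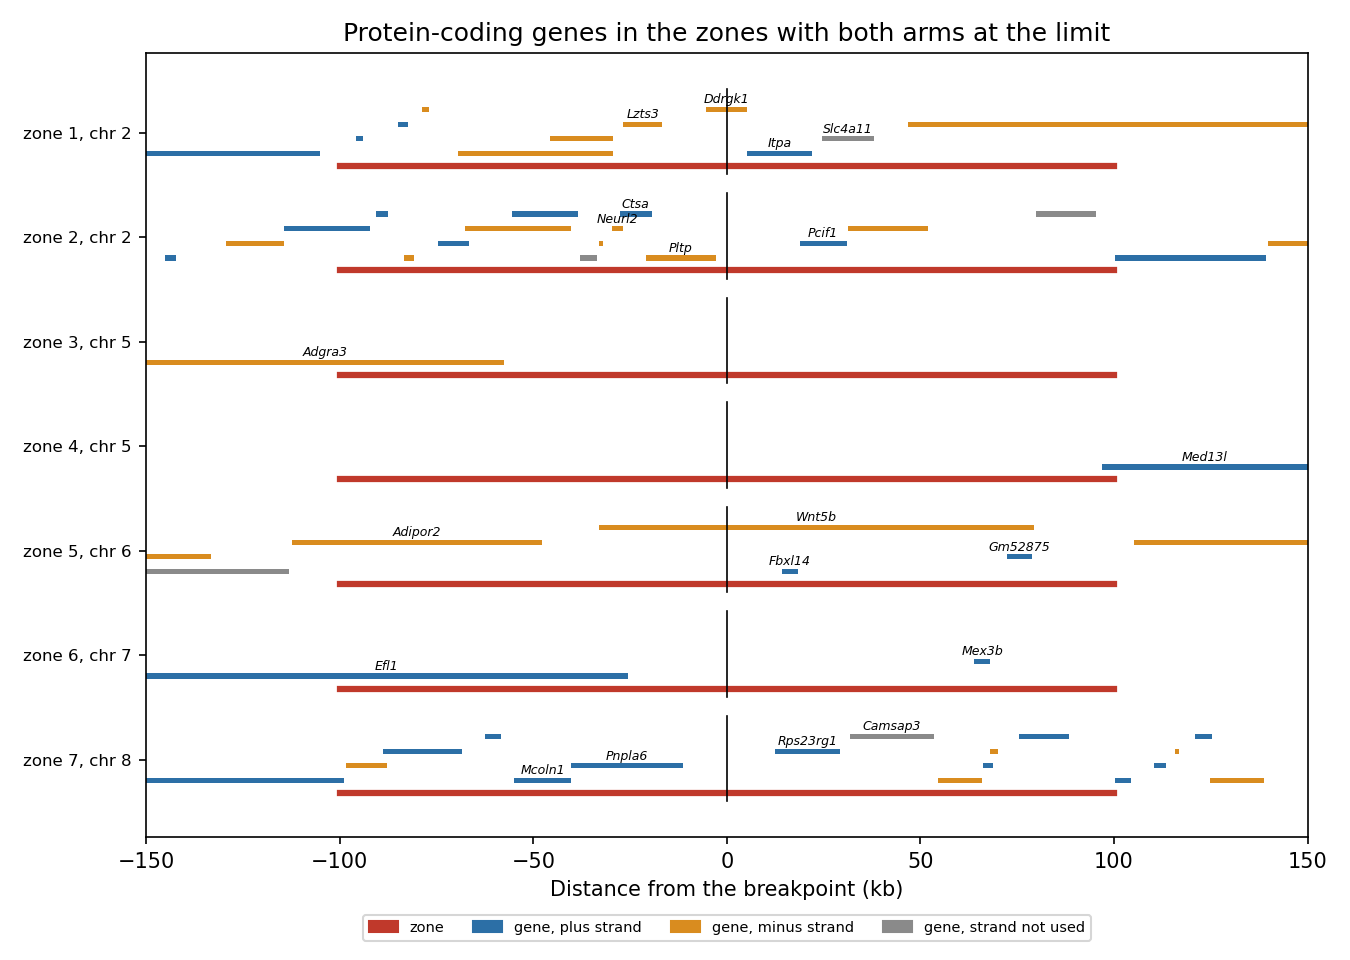
Protein-coding genes in the 7 zones with both arms at the limit, by distance in kb from the breakpoint at 0, with a red bar for the 200 kb of each zone. Zones differ between 1 gene with an end within 100 kb and 14.

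Limit zones stood farther from their neighbours than the other zones did, and the interval of their median overlapped that of near-limit zones. The nearest other breakpoint was a median of 448.5 kb away (402 to 495, range 5 to 3007), against 350 kb (336 to 365) for the other zones and 427 kb (399 to 456) for near-limit zones. A neighbour within 200 kb was found for 44 limit zones (16.2%, 12.3 to 21.0), against 668 other zones (26.0%), a difference of -9.80 points (-14.1 to -4.68) beside 25% over all zones. Against near-limit zones (19.9%) the difference was -3.73 points (-8.50 to 1.71). The nearest breakpoint was over 1 Mb away in 41 limit zones (15.1%), against 11.7% of the other zones, a difference of 3.41 points (-0.572 to 8.29). Of the rows, 1 of 272 limit zones shared both edges with another row, against 121 of 2572 other zones. Such repeated intervals bring breakpoints close together, and with each counted once the median of the other zones was 371 kb.

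**Figure D5:**
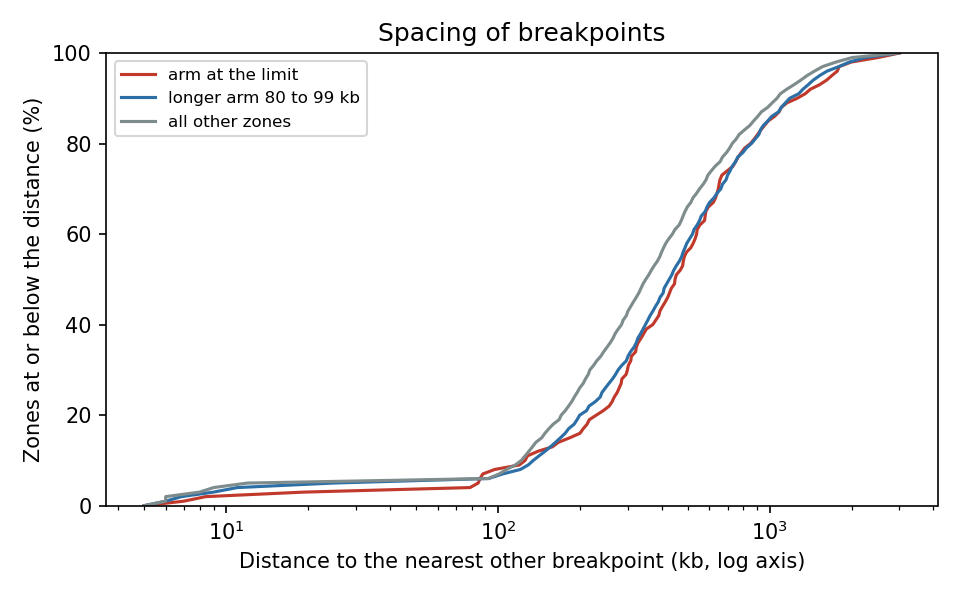
Cumulative share of zones, in percent, by distance to the nearest other breakpoint in kb on a log axis, for limit zones, near-limit zones and the other zones. Medians are 448.5, 427 and 350 kb.

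On the side of the limit arm the distance to the next zone overlapped that of the other zones, and on the opposite side it was larger. The next breakpoint on the limit side was a median of 734 kb away (651 to 881, n = 273), against 651.5 kb (581 to 745, n = 276) on the opposite side of the same zones. In the other zones the medians were 700 kb (671 to 729) on the side of the longer arm and 480 kb (455 to 502) on the side of the shorter arm, and in near-limit zones they were 802 kb (753 to 878) and 579 kb (534 to 633). The neighbour on the side of the limit arm was the farther one in 149 of 270 limit zones (55.2%, 49.2 to 61.0), against 61.2% (59.3 to 63.1) for the longer arm of the other zones. Measured from edge to facing edge, the gap was a median of 552 kb on the limit side and 528.5 kb on the opposite side, against 576 and 377 kb in the other zones and 656 and 470 kb in near-limit zones.

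Some limit arms ran across a neighbour's breakpoint. The next breakpoint on the limit side lay within 100 kb for 16 of 273 limit arms (5.86%, 3.64 to 9.31), against 96 of 2553 longer arms of the other zones (3.76%, 3.09 to 4.57) and 4.06% of near-limit arms. In the other zones such a breakpoint could lie past the end of the arm, because their longer arm had a median of 66 kb. Limit zones followed one another along a chromosome about as often as their number in the list gives: of 536 next zones 48 were limit zones too (8.96%, 6.82 to 11.7), against 9.56% over all zones. They made 24 adjacent pairs. In 4 pairs the breakpoints were 79 to 86 kb apart and the limit arms faced each other, so that each arm crossed the breakpoint of its partner. These pairs, singled out after their values were seen, had Lhx6 and Mrrf on chromosome 2, Tulp3 and Nrip2 on chromosome 6, Rps29 and Pole2 on chromosome 12, and Gm6958 and Senp7 on chromosome 16 as the genes nearest to their breakpoints. The pair inside Hs3st5 had breakpoints 8 kb apart and shared its right edge.

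Neighbours closer than 10 kb occurred in 8 limit zones (2.94%), against 108 other zones (4.20%). Apart from the Hs3st5 pair, the closest were the zones nearest to Csmd3, with 5 kb, Zfp53, with 6 kb, Dpys, the dihydropyrimidinase gene, with 7 kb, and Ncam2, with 7 kb. The farthest neighbours belonged to the zones nearest to Gm28710, at 3007 kb, Pnpla6, at 2744 kb, Zscan5b, at 2619 kb, Csrp2, at 2454 kb, and Slitrk1, at 2430 kb. Isolation went with few genes at Slitrk1, a gene of neurite growth, where the zone had no gene end within 500 kb, but not at Pnpla6, where 12 genes had an end within 100 kb. The Pnpla6 zone is the first of its chromosome in the list, so its distance was measured to the right only. Successive limit zones on a chromosome were a median of 5.33 Mb apart (4.30 to 6.41, range 0.008 to 51.9).

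Genes of 6 lists that fit embryonic stem cells, replication and chromatin, and of 6 gene classes, were counted with an end inside a limit zone. Over all protein-coding genes the share was 979 of 20558 (4.76%). Of the 245 list genes 25 were in a limit zone (10.2%, 7.01 to 14.6). Among the genes of a list that lay in a zone of any kind, limit zones held between 11.1% (pluripotency, 2 of 18) and 30.8% (histone chaperones, 4 of 13). The share was 14.7% of all 6664 protein-coding genes in a zone. The list counts are small, and no interval was computed for these shares. No test of the lists was made.

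Histone chaperones had 4 of 22 genes in limit zones. These were Chaf1b, a subunit of CAF-1, which deposits histones behind the fork, Supt16, a subunit of FACT, Ubn1, of the HIRA complex, and Daxx; their ends lay 72.4, 32.9, 75.6 and 28.9 kb from a limit-zone breakpoint. DNA replication genes had 5 of 50. Rfc2, a subunit of the clamp loader, was 3.17 kb and Pole2, a subunit of DNA polymerase epsilon, 4.30 kb from a breakpoint, followed by the fork protection gene Tipin at 8.99 kb, the origin firing gene Ticrr at 27.4 kb and the helicase subunit gene Mcm5 at 29.0 kb. Chromatin enzymes had 5 of 48, among them the acetyltransferase Kat8 at 1.34 kb, the H3K9 methyltransferase Suv39h2 at 9.51 kb, the H3K36 demethylase Kdm2a at 13.8 kb and the Polycomb subunit Eed at 18.5 kb.

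Signalling ligands and receptors had 7 of 57. Apart from Notch3 and Wnt5b these were the activin receptors Acvr1b at 13.8 kb and Acvr2b at 60.1 kb, the ligand Wnt3a at 21.3 kb, Lif, the cytokine that maintains these cells in culture, at 22.1 kb, and the growth factor receptor Pdgfra at 74.8 kb. Pluripotency genes had 2 of 29, Prdm14 at 17.9 kb and Tbx3 at 37.0 kb. Lineage transcription factors had 2 of 39, Foxa1, of endoderm, at 33.1 kb and Tal1, of blood, at 54.9 kb.

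Among the classes, 23 of 388 Zfp zinc finger genes were in limit zones (5.93%), with Zfp408 at 0.256 kb, Zfp53 at 5.43 kb and Zfp57, which protects imprints, at 10.8 kb. Cytosolic ribosomal protein genes had 4 of 77, namely Rpl24 at 2.78 kb, Rps29 at 4.22 kb, Rps25 at 15.2 kb and Rps28 at 55.9 kb. Genes of 300 kb or more had 19 of 533 (3.56%, 2.29 to 5.50), among them Foxn3, a forkhead factor, and Rbfox1, a splicing regulator. Olfactory receptor genes had 3 of 1103 (0.272%), and Hox genes (0 of 39) and vomeronasal receptor genes (0 of 351) had none. Wilson intervals for these counts of 0 reach 8.97% and 1.08%. Few genes of these classes lay in a zone of any kind: 49 olfactory receptor genes (4.44%), 8 Hox genes (20.5%) and 10 vomeronasal receptor genes (2.85%), against 32.4% of all protein-coding genes.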

How the data were processed

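One OK-seq library of wild-type E14TG2a cells was used. The deposited list gives, per the file headers, breakpoint bins of 1 kb with the distances in bp to a minimum on the left and a maximum on the right; it holds no counts or signal. Tools named in the submitters' processing notes are BWA 0.7.13, Bowtie, Trim Galore 0.4.2, Picard 2.8.2, SAMtools and bcl2fastq, and the build named there is mm10. Their part in this library and the way zones were called (not given in the sources used here) could move breakpoints and edges. The authors' values were used as deposited.

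Zones, genes and lists described here were chosen with earlier results of these data known. Genes came from RefSeq GRCm38.p6, with 20558 protein-coding genes used. Left out as lying on scaffolds were 333 genes of all kinds, listed out of position order or starting before 3 Mb. Strand was taken from the RefSeq promoter table for 80.1% of the protein-coding genes. Either gene end was therefore used, and orientation was counted only for genes with a strand. Distances run from the middle of the breakpoint bin. Shares carry Wilson intervals, differences of shares Newcombe intervals, differences of means intervals from their standard errors, medians order-statistic intervals and densities exact Poisson intervals, computed with Python 3.11.15, numpy 2.4.6, pandas 2.3.3 and scipy 1.17.1. Overlap counting was tested on simulated data of 200 positions and 300 genes, with 0 mismatches. No test was run.

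Genes were named by a rule: up to 4 nearest genes in zones with both arms at the limit, the 10 arms most covered by 1 gene, the 5 zones with most and 5 with no genes, the 5 with the nearest and 5 with the farthest neighbour, up to 8 per list, and the 5 nearest gene starts. Entries on chromosome 18 are not named. A result that this rule picks is not reported here. Alternatives changed the arm limit, the window, the gene set, the reference point, repeated intervals, the comparison zones and the distance measure. No paired analysis was possible because there is 1 library.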

Additional observations from a re-analysis of the deposited data

How the results depend on the processing

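Of 39 alternative values, 30 stayed within the interval of the value reported, 8 moved and 1 reversed. The reversal is the gene-body cover of the arm: 5.43 points more than in the other zones over the whole arm, -2.02 (-6.57 to 2.54) over its outer part. Both values compare arms of unlike length. The point midway between the edges was also used in place of the breakpoint. With it the difference in the share inside a gene body was 12.4 points (6.29 to 18.6). That point lies on the longer arm wherever the arms differ in length. With all 668 zones that have an arm of at least 95 kb the difference was 4.71 (0.752 to 8.80). With genes of all kinds it was 2.70 (-3.33 to 8.93). All of these values are of opposite sign to the -0.155 reported. Against near-limit zones the difference in the share inside a gene body was -3.17 points (-9.13 to 3.22). The differences in genes within 500 kb, 0.844, and in genes of 50 kb or more over the arm, -4.02, had intervals that include 0. The nearest neighbour of limit zones was 306.5 kb away between edges; for the other zones it was 247.5 kb between edges, 371 kb with repeated intervals counted once, 335.5 kb under the 95 kb rule and 427 kb for near-limit zones. Against those, the difference in neighbours under 200 kb was -3.73 points. The gap on the limit side was 552 kb from edge to edge. The causes were not tested. The limits are 1 library, unknown depth, a list cut at 100 kb and strand for part of the genes. No paired analysis was possible because there is 1 library.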

Other observations

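Genes of other kinds were counted by their midpoint inside zones. Protein-coding genes numbered 788 in limit zones, or 18.6 per Mb (17.3 to 19.9), against 14.3 per Mb (13.8 to 14.7) in the other zones. Long non-coding RNA genes did not differ beyond their intervals, at 8.02 per Mb (7.19 to 8.92) in limit zones, against 7.73 (7.41 to 8.07). The 44 miRNA genes came to 1.04 per Mb (0.754 to 1.39), against 0.916 (0.806 to 1.04). The 26 tRNA genes came to 0.613 per Mb (0.401 to 0.899), against 0.436 (0.361 to 0.522). The 20 snoRNA genes came to 0.472 per Mb (0.288 to 0.729), against 0.732 (0.633 to 0.841), and the 17 snRNA genes to 0.401 (0.234 to 0.642), against 0.621 (0.530 to 0.722). Intervals overlapped for each of these classes of small RNA genes, and pseudogenes had 4.32 per Mb in limit zones, against 4.01.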
